A study of Mus musculus with 6 samples.

Results

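A set of 8 genes of hyaluronan synthesis, binding and turnover was followed in mouse lung fibroblasts. The cells were treated to induce an activated form of Smoothened, a protein of hedgehog signalling. They are the hyaluronan synthase genes Has1, Has2 and Has3, the hyaluronidase genes Hyal1 and Hyal2, the receptor gene Cd44, the proteoglycan gene Vcan and Tnfaip6, which encodes the secreted hyaluronan-binding protein TSG-6. A gene was represented by the probe set whose annotation gives its symbol and no other, and 7 of the 8 genes had such a probe set, 1 each, out of 22180 genes tested. Hyal1 had none, because both probe sets that list it also list Naa80, and it has no value below. Has2 and Hyal2 were each also listed on 1 probe set with several symbols, which was not read.

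Hyaluronan is a long, unsulfated polysaccharide of alternating glucuronic acid and N-acetylglucosamine. It is made at the plasma membrane by the synthases from nucleotide sugars and pushed out of the cell as it grows, then bound by CD44 on cells and by versican and TSG-6 in the matrix, and cut by hyaluronidases at the cell surface and in lysosomes. Fibroblasts are a main source of it in the lung, where it gathers in the tissue after injury.

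RNA came from primary fibroblasts of adult mice of mixed strain, grown in serum-containing medium and passaged few times. All wells carried the alleles labelled UBCCreERT/RSmoM2, that is, a tamoxifen-activated Cre recombinase driven by the widely active ubiquitin C promoter and a Cre-dependent SmoM2 at the R26 locus, the constitutively active form of Smoothened. 3 wells received vehicle and 3 wells received 4-hydroxytamoxifen (4OHT), which activates the recombinase, at 1 µg/ml, and RNA was taken at 48 h in both groups. The drug, recombinase activity and SmoM2 differ together between the groups and cannot be told apart. All arrays carry the same genotype number and the labels name no separate animals, so the p-values speak for these wells, whose spread may be technical, and for no other animals. Wells and arrays are numbered 1 to 3 within each group as in the labels.

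Across genes, which are no independent replicates, the arrays correlated at 0.997 to 0.998 within a group and 0.995 to 0.996 between groups. Of all genes, 12.0% passed an adjusted p under 0.05 (limma, Benjamini-Hochberg over all genes), 5.38% as higher and 6.62% as lower in 4OHT wells. The 2662 genes called were 1193 higher and 1469 lower. With each array centred on the median of its genes, a planned setting, 1406 were higher and 1288 lower. With the arrays centred on the median of all probe sets, a setting chosen after seeing the data, 775 were higher and 1748 lower. The balance of rises and falls thus depends on the centring. Between 1220 and 2326 genes were called when 1 array was left out, the lowest counts being 1585 and 1336 on leaving out vehicle well 1 or 2 and 1473 and 1220 on leaving out 4OHT well 1 or 2. The values of the groups did not overlap in 32.7% of genes. Counts of called genes in a list are to be read beside these shares. The genes and lists were chosen with earlier results of these data known, so a higher share in a list is no test of it.

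Markers of several cell types were read to check the label of the cultures. Each of the 10 fibroblast markers was brighter than 95% of the probe sets of 1394 olfactory and vomeronasal receptor genes. The receptor genes serve here as an estimate of background (their 95th percentile was a log2 expression of 6.47). Col3a1 was lower in 4OHT wells and no fibroblast marker was higher (1 of 10 called, beside 12.0% of all genes). The groups did not overlap for 6 of these 10 markers, beside 32.7% of all genes. All 8 mesothelial markers also lay above that background, with Msln at 12.12 ± 0.05 and Upk3b at 13.10 ± 0.01 in vehicle wells (SD, n = 3). Their mean log2 level ranged from 10.02 to 10.06 in vehicle and from 9.94 to 9.98 in 4OHT wells, with Msln higher and Upk3b, Lrrn4 and Krt8 lower (4 of 8 called, beside 12.0% of all genes); the call of Msln was among those lost without 4OHT well 1 or 2. The 8 smooth muscle and pericyte markers averaged 11.98 to 12.01 in vehicle and 11.53 to 11.58 in 4OHT wells, 6 of them lower, beside 6.62% of all genes. Of 10 macrophage markers 1 was higher and 2 lower (mean level 7.27 to 7.30 against 7.15 to 7.29; 3 at or below the background), of 8 endothelial markers 2 were higher and 3 lower (6.72 to 6.85 against 6.62 in each 4OHT well; 5 at or below it), and of 7 epithelial markers none was called, beside the 12.0% of all genes called (6.09 to 6.16 against 5.996 to 6.14; 5 at or below it). Endothelial calls fell to 1 higher and 1 lower without 4OHT well 2 and to 1 higher and 2 lower without 4OHT well 1 or vehicle well 3. The part of these cells in the values below was not tested, and in a bulk sample fewer cells of a type and less RNA per cell cannot be told apart.

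Of the 7 measured genes, Has1 and Vcan were higher and Has2 lower in 4OHT wells, while Has3, Hyal2, Cd44 and Tnfaip6 did not pass. That is 3 called of 7, beside 12.0% of all genes. When only genes above the median level were fitted, 2 of 4 were called, beside 3884 of 11090 genes. The values of the groups did not overlap for 5 of them, Has1, Has2, Hyal2, Vcan and Tnfaip6, beside 32.7% of all genes. The median log2 fold change was -0.06, beside -0.0051 for all genes tested. Leaving out 1 array left 1 to 3 genes called, and without 4OHT well 2 Has1 alone was called.

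**Figure D1:**
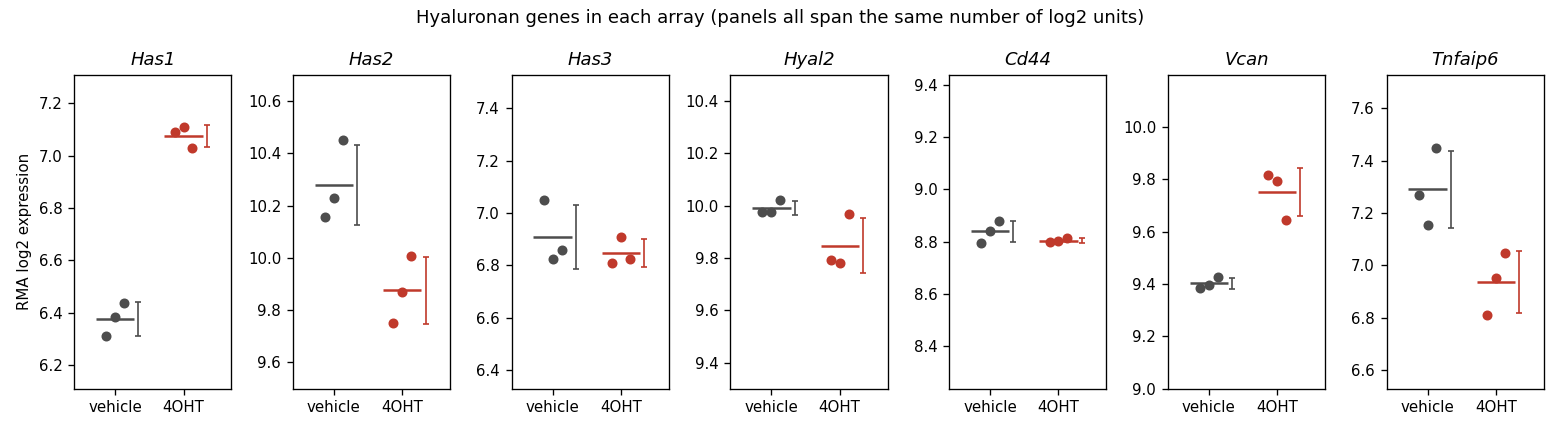
RMA log2 expression (y axis, all panels spanning the same number of log2 units) of the 7 measured genes in the 3 vehicle and 3 4OHT wells; points are arrays, horizontal lines are group means and the bars beside them are ± 1 SD. Has1 and Vcan lie higher in every 4OHT well than in any vehicle well and Has2, Hyal2 and Tnfaip6 lower, while the points of Has3 and Cd44 overlap.

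Of the 3 synthase genes, Has1 was higher, Has2 lower by a call near the threshold, and Has3 did not pass. Has1, whose product is the least active of the family in most cells, read a log2 expression of 6.31, 6.38 and 6.43 in the vehicle wells and 7.09, 7.11 and 7.03 in the 4OHT wells. Every 4OHT well stood above every vehicle well, and the gap between the groups was larger than the range within either. The means were 6.38 ± 0.06 and 7.08 ± 0.04 (SD, n = 3), and the fitted rise (log2 fold change 0.70, SE 0.051, 95% interval 0.58 to 0.82, limma adjusted p = 0.00063) is measured from a vehicle level below the 95th percentile of background. Taken from that percentile on each array, Has1 was at least 1.52-fold higher in 4OHT wells. The rise was called without each of the arrays in turn, with adjusted p from 0.0029 to 0.0055. At the vehicle level, 5.60% of the olfactory and vomeronasal receptor genes were as bright or brighter, against 2.08% at the 4OHT level, and RMA compresses fold changes of dim probe sets.

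Has2 encodes the synthase that makes most of the hyaluronan of fibroblasts and of the embryo. Its log2 expression was 10.16, 10.23 and 10.45 in vehicle wells and 9.75, 9.87 and 10.01 in 4OHT wells. The groups did not overlap, but the gap between the highest 4OHT well and the lowest vehicle well was smaller than the range within either group. The means were 10.28 ± 0.15 and 9.88 ± 0.13 (SD, n = 3), so that Has2 was 1.32-fold lower (log2 fold change -0.40, SE 0.097, 95% interval -0.63 to -0.17, limma adjusted p = 0.0430). This call was near the threshold and was lost on leaving out vehicle well 1 (adjusted p = 0.0547), well 2 (0.0979) or well 3 (0.0844) or 4OHT well 1 (0.126) or well 2 (0.125), and in a fit over all probe sets (0.0941). The log2 fold change stayed between -0.47 and -0.32 when 1 array was left out.

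Has3, the synthase that makes shorter chains, read 7.05, 6.82 and 6.86 in vehicle wells and 6.81, 6.91 and 6.83 in 4OHT wells. The values interleaved, and the 95% interval of the log2 fold change ran from -0.23 to 0.11 (log2 fold change -0.06, limma adjusted p = 0.635). It was a dim probe set in both groups, with 2.44% of the olfactory and vomeronasal receptor genes at or above its vehicle mean.

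The promoter windows of the RefSeq table (GRCm38.p6, 250 bases before to 50 after a start) held 6 of the 8 genes, without Has2 and Has3. They were searched on both strands for the cyclic AMP response element TGACGTCA, the AP-1 site TGAGTCA, the GLI site GACCACCCA, which is the site bound by the transcription factors of hedgehog signalling, and the E-box CACGTG. In all, 2 matches were found, at Has1 and at Tnfaip6, and both are shown. The capitals mark the motif and each sequence is read 5′ to 3′ on the strand of its gene.
Has1, chr17:17855253-17855282, minus strand: cagacttgtccTGACGTCAgccctcctcca
Tnfaip6, chr2:52037960-52037989, plus strand: gccaatgcaaaTGAGTCAgagggcttgctt
The Has1 match begins 83 bases before the start used in the table, and 1.79% of all 32851 windows hold that motif. The Tnfaip6 match begins 142 bases before the start, and 5.20% of windows hold it. None of the 6 windows held the GLI site or the E-box, which stand in 0.253% and 7.15% of all windows. A match is a description of letters and shows no binding.

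Among the genes whose products bind hyaluronan, Vcan rose. Vcan encodes versican, a large chondroitin sulfate proteoglycan that binds hyaluronan through its amino-terminal domain. It read 9.38, 9.40 and 9.43 in vehicle wells and 9.82, 9.79 and 9.65 in 4OHT wells. All 4OHT wells stood higher, with 4OHT well 3 the nearest to the vehicle wells. The means were 9.40 ± 0.02 and 9.75 ± 0.09 (SD, n = 3), a 1.27-fold rise (log2 fold change 0.35, SE 0.057, 95% interval 0.21 to 0.49, limma adjusted p = 0.0117). Without 4OHT well 2 the adjusted p was 0.0536 and the call was lost; without the other arrays in turn it lay between 0.0076 and 0.0493.

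Cd44 encodes the main cell surface receptor for hyaluronan. It read 8.80, 8.84 and 8.88 in vehicle wells and 8.80, 8.80 and 8.81 in 4OHT wells. The groups overlapped, and the 95% interval of the log2 fold change, -0.14 to 0.07, was the narrowest of the 7 genes (log2 fold change -0.03, limma adjusted p = 0.671). The probe set reads the gene as a whole and cannot separate the splice forms of Cd44.

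Tnfaip6 encodes TSG-6, which is induced by inflammatory signals and moves heavy chains of inter-alpha-inhibitor onto hyaluronan. It read 7.27, 7.15 and 7.45 in vehicle wells and 6.81, 6.95 and 7.05 in 4OHT wells. The groups did not overlap, yet the test did not pass (log2 fold change -0.35, 95% interval -0.58 to -0.13, limma adjusted p = 0.0570). When limma estimated the spread with a trend and robustly, it passed (adjusted p = 0.0227), and under the other alternatives it lay between 0.0514 and 0.155.

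Hyal2, a hyaluronidase anchored at the cell surface that cuts long chains into intermediate ones, read 9.98, 9.98 and 10.02 in vehicle wells and 9.79, 9.78 and 9.97 in 4OHT wells. 4OHT wells 1 and 2 were lower and well 3 stood just under the vehicle wells. The log2 fold change of -0.14 did not pass (95% interval -0.29 to 0.0044, limma adjusted p = 0.201), and without 4OHT well 3 it was -0.21 (adjusted p = 0.0515).

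**Figure D2:**
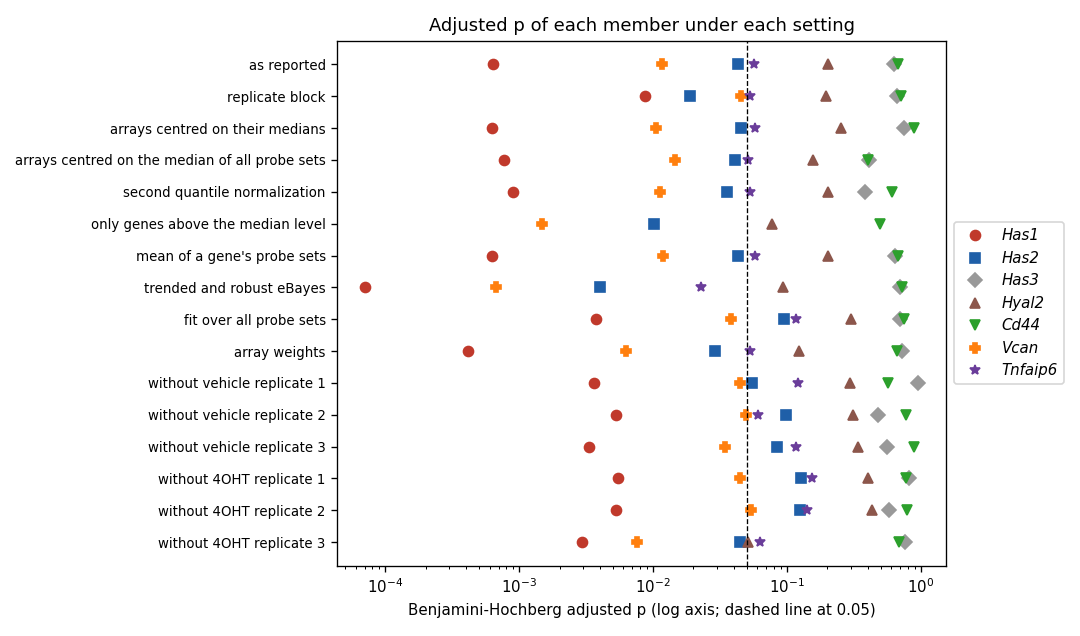
Benjamini-Hochberg adjusted p (x axis, log scale, dashed line at 0.05) of each measured gene under the reported setting and each alternative at that threshold (y axis). Has1 lies left of the line in every row where it was tested, Vcan in all but the row without 4OHT well 2, Has2 crosses it with most arrays left out, and Has3, Hyal2 and Cd44 stay to its right.

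The other genes of the pathway were read from 7 lists ordered by role, which held 71 genes, 68 of them measured. Of these, 8 were higher and 11 lower in 4OHT wells, 19 in all or 27.9%, beside 12.0% of all genes. As the lists were chosen with earlier results of these data known, this share describes them and is no test of the pathway. With the arrays centred on the median of all probe sets, the counts were 4 higher and 12 lower. With each array centred on the median of its genes, they were 8 higher and 10 lower. When only genes above the median level were fitted, 23 of 45 pathway genes were called, beside 3884 of 11090 genes. The median log2 fold change of the 68 genes was -0.03. The count of 19 fell to 9, 8 and 11 on leaving out vehicle well 1, 2 and 3. It fell to 10 and 8 on leaving out 4OHT well 1 and 2. The 7 genes called whichever array was left out were Uap1l1, Gnpda1, Hmmr, Tlr4, Acan, Ptx3 and Adamts1. The calls of Nagk, Chst12 and Dsel were lost whichever array was left out, and those of the remaining 9 were lost without 1 or more arrays.

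**Figure D3:**
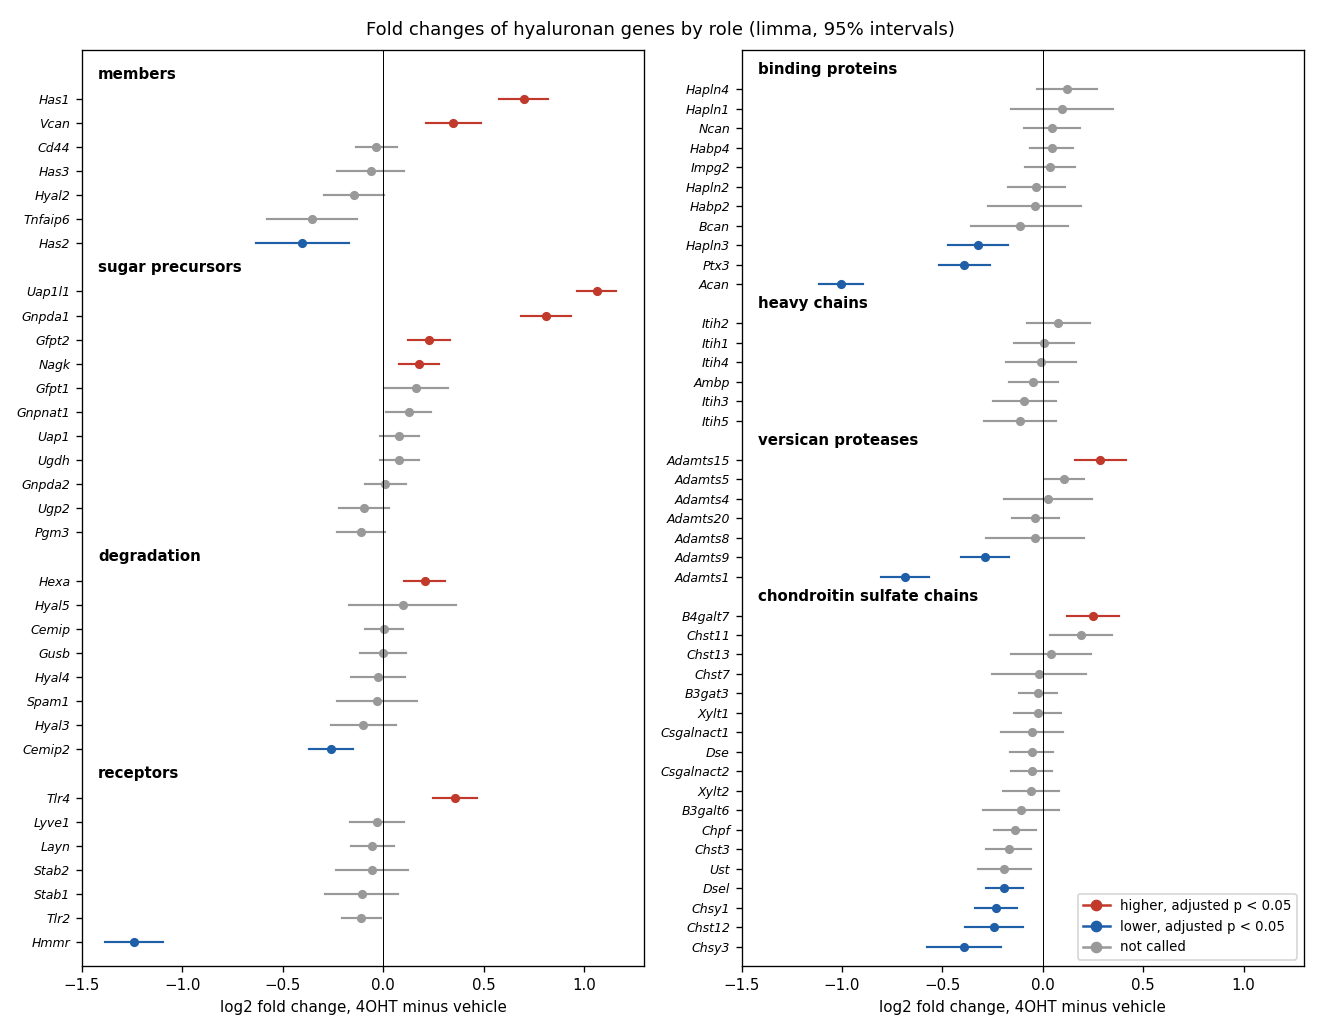
Log2 fold change, 4OHT minus vehicle (x axis), with 95% limma intervals for the 7 measured genes ("members") and the 68 other pathway genes, grouped by role (y axis); red is higher and blue lower at an adjusted p under 0.05, grey did not pass. Uap1l1, Gnpda1 and Has1 lie farthest to the right, and Hmmr, Acan and Adamts1 farthest to the left.

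Genes that supply or turn over the sugars of hyaluronan were read as a list of 11, all measured. Of these, 4 rose and none fell, beside 5.38% and 6.62% of all genes, and 7 did not pass; the median log2 fold change was 0.13. Uap1l1, a relative of the enzyme that makes UDP-N-acetylglucosamine, read 8.46, 8.41 and 8.41 in vehicle wells and 9.47, 9.50 and 9.50 in 4OHT wells. This was a 2.09-fold rise (log2 fold change 1.06, SE 0.042, limma adjusted p = 0.00016). Gnpda1, whose product deaminates glucosamine 6-phosphate and so runs against synthesis of the amino sugar, read 10.75, 10.71 and 10.77 in vehicle wells and 11.57, 11.61 and 11.48 in 4OHT wells. It rose 1.75-fold (log2 fold change 0.81, SE 0.052, limma adjusted p = 0.00042). In both genes the groups lay far apart against the spread between wells. Gfpt2, an isoform of the first enzyme of the hexosamine pathway, rose 1.17-fold (adjusted p = 0.0190), a call lost on leaving out well 1 or 2 of either group (adjusted p up to 0.0794), and Nagk, the salvage kinase for N-acetylglucosamine, rose 1.13-fold (adjusted p = 0.0382, and 0.0541 to 0.128 with 1 array left out). Both lost their call with the arrays centred on the median of all probe sets. Ugdh, which makes the glucuronic acid donor, stood at 0.08 (95% interval -0.02 to 0.18), Gnpnat1 at 0.13 (adjusted p = 0.146) and Gfpt1 at 0.16 (adjusted p = 0.180). Pgm3, a mutase of the amino sugar route, stood at -0.11 (adjusted p = 0.216), and Ugp2, which makes UDP-glucose, at -0.10 (adjusted p = 0.299). The values of the groups did not overlap for 8 of the 11 genes, Ugdh, Gnpnat1 and Pgm3 among them, beside 32.7% of all genes. The number higher was 2 on leaving out well 1 or 2 of either group.

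Of 8 measured genes of hyaluronan breakdown, Hexa was higher, Cemip2 was lower and 6 did not pass, beside 12.0% of all genes called. The median log2 fold change was -0.01, and none of the 8 was called without vehicle well 2 or without 4OHT well 2. Cemip2, which encodes a cell surface protein of hyaluronan degradation, read 9.14, 9.16 and 9.16 in vehicle wells and 8.96, 8.85 and 8.87 in 4OHT wells, 1.20-fold lower (limma adjusted p = 0.0157; 0.0690 at most with 1 array left out, and lost without vehicle well 2 or 4OHT well 2). Hexa, a subunit of the lysosomal hexosaminidase that trims the ends of the fragments, rose 1.15-fold (adjusted p = 0.0257), a call that held without 4OHT well 3 and was lost without any of the other arrays (adjusted p up to 0.102). Cemip, which encodes a hyaluronan-binding protein needed for hyaluronan breakdown in skin fibroblasts, read 13.56, 13.56 and 13.52 in vehicle wells and 13.55, 13.55 and 13.56 in 4OHT wells. Its groups overlapped, with a 95% interval of -0.09 to 0.10 for the log2 fold change. Hyal3 stood at a log2 fold change of -0.10 (adjusted p of 0.427) and Hyal5 of 0.10 (adjusted p = 0.642). Hyal4, Hyal5 and Spam1, hyaluronidase genes best known from other tissues, were the 3 genes of this list at or below the background level.

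Of 7 measured receptor genes other than Cd44, Tlr4 was higher, Hmmr lower and 5 did not pass, beside 12.0% of all genes called. Hmmr, which encodes a hyaluronan-binding protein that also acts at the mitotic spindle, read 7.47, 7.60 and 7.43 in vehicle wells and 6.23, 6.32 and 6.23 in 4OHT wells. It fell (log2 fold change -1.24, SE 0.060, limma adjusted p = 0.00019), and as its 4OHT values lay below the 95th percentile of background, it was at least 1.96-fold lower against that percentile. Genes of mitosis moved with it: all 11 measured genes of a mitosis list were lower, beside 6.62% of all genes, with a median log2 fold change of -1.41, and the list's mean level ranged from 9.73 to 9.79 in vehicle and from 8.36 to 8.53 in 4OHT wells. The 3 of smallest p were Ccna2, Prc1 and Plk1, with log2 fold changes of -1.58, -1.46 and -1.51. The part of cell division in the Hmmr value was not tested. Tlr4, a receptor of innate immunity for which hyaluronan fragments are among the reported ligands, read 9.23, 9.23 and 9.24 in vehicle wells and 9.66, 9.57 and 9.55 in 4OHT wells, a 1.28-fold rise (limma adjusted p = 0.0047). Tlr2 stood at a log2 fold change of -0.11 (adjusted p of 0.149), and the scavenger receptor gene Stab1 of -0.11 (adjusted p = 0.428).

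Among other genes of hyaluronan-binding proteins, Acan, Ptx3 and Hapln3 were lower. Acan, which encodes aggrecan, a proteoglycan of the same family as versican, read 11.52, 11.54 and 11.56 in vehicle wells and 10.57, 10.48 and 10.56 in 4OHT wells. It was 2.004-fold lower (log2 fold change -1.003, SE 0.046, 95% interval -1.11 to -0.89, limma adjusted p = 0.00019), opposite in direction to Vcan. Ptx3, which encodes a pentraxin that binds heavy chains and helps to crosslink hyaluronan together with TSG-6, read 9.86, 9.83 and 9.91 in vehicle wells and 9.48, 9.40 and 9.54 in 4OHT wells. It was 1.31-fold lower (log2 fold change -0.39, limma adjusted p = 0.0059), with no overlap between the groups. Hapln3, a link protein gene, was 1.25-fold lower (adjusted p = 0.0202), a call lost without any of the 3 vehicle arrays (adjusted p up to 0.0658). Of the 11 measured genes of this list, 3 were lower and none higher, beside 6.62% and 5.38% of all genes; those not called included the link protein gene Hapln4 (log2 fold change 0.12, adjusted p = 0.276) and the brain proteoglycan gene Bcan (-0.12, adjusted p = 0.534). None of the 6 genes of the inter-alpha-inhibitor heavy chain family and light chain was called (limma adjusted p under 0.05), beside 12.0% of all genes. None had an unadjusted limma p under 0.05. These were mostly dim probe sets, with 2 of the 6 at or below the background level. Itih2 alone stood well above it (8.81 in vehicle and 8.88 in 4OHT wells), so the lack of calls says little about the others. Itih5 stood at a log2 fold change of -0.11 (limma adjusted p of 0.400) and Itih3 of -0.09 (adjusted p = 0.434).

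Proteases that cut versican were measured beside it. Adamts1, a secreted metalloprotease of versican and aggrecan, read 12.55, 12.60 and 12.61 in vehicle wells and 11.91, 11.84 and 11.95 in 4OHT wells. It was 1.61-fold lower (log2 fold change -0.69, SE 0.050, limma adjusted p = 0.00059), while Vcan rose. Adamts9 was 1.22-fold lower (adjusted p = 0.0137) and Adamts15 rose 1.22-fold (adjusted p = 0.0176), so that 1 of 7 measured proteases was higher and 2 lower, beside 5.38% and 6.62% of all genes. The call of Adamts9 was lost without vehicle well 1 or 4OHT well 1 or 2 (adjusted p up to 0.0617), and that of Adamts15 without any array other than 4OHT well 3 (adjusted p up to 0.0706). Adamts5 stood at a log2 fold change of 0.11 (adjusted p of 0.166) and Adamts20 of -0.04 (adjusted p = 0.694).

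Genes of enzymes that build the chondroitin sulfate chains of versican and aggrecan formed the longest list. Of 18 measured, 4 fell and 1 rose, beside 6.62% and 5.38% of all genes, with a median log2 fold change of -0.06. Chsy1 and Chsy3, which encode chondroitin synthases that lengthen the chain, were 1.18-fold and 1.31-fold lower (limma adjusted p = 0.0183 and 0.0222). Chst12, a sulfotransferase gene, was 1.18-fold lower (adjusted p = 0.0459) and Dsel, related to the epimerase that makes dermatan sulfate, 1.14-fold lower (adjusted p = 0.0240), while B4galt7, which acts in the linkage to the core protein, rose 1.19-fold (adjusted p = 0.0306). None of these calls held without every array in turn, and no more than 1 member of the list was called without any 1 array. Second probe sets went against the sign of the first for Chsy3 (a log2 difference of 0.16) and B4galt7 (-0.03), and had the same sign for Chsy1 (-0.18). Chst3 stood at a log2 fold change of -0.17 (adjusted p of 0.0658) and the uronyl sulfotransferase gene Ust of -0.19 (adjusted p = 0.0760). Chst3 lay below the background level in both groups (6.18 in vehicle and 6.01 in 4OHT wells).

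**Figure D4:**
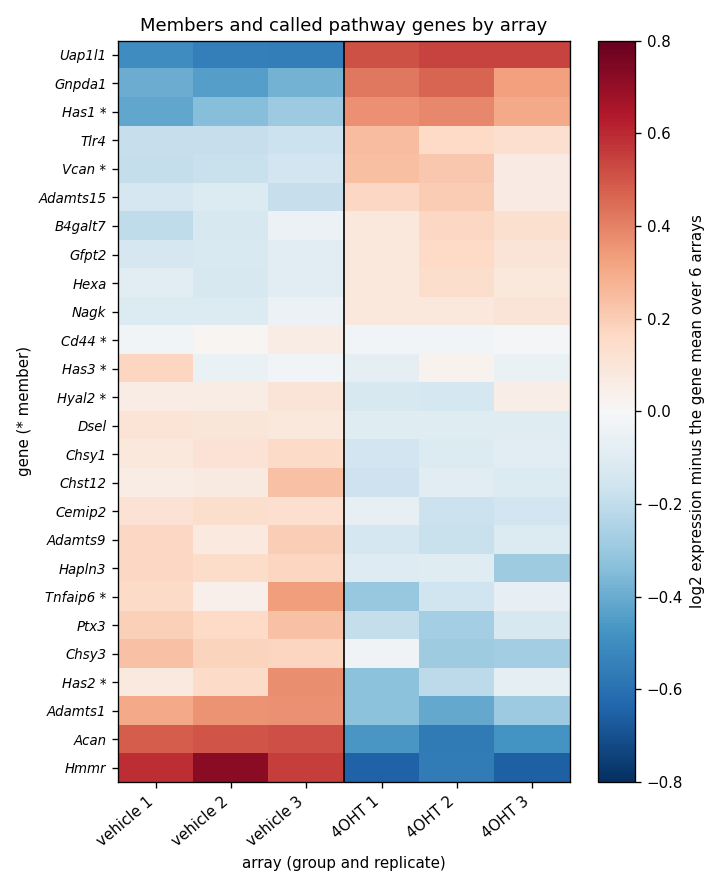
Log2 expression minus the mean of the gene over the 6 arrays (colour, red above and blue below) for the 7 measured genes, marked with an asterisk, and the 19 called pathway genes (rows, ordered by log2 fold change) in each array (columns). The vehicle and 4OHT wells differ in sign throughout for the called genes, while Cd44 and Has3 are pale.

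The genes whose values over the 6 arrays ran closest to those of the called genes were found by the Euclidean distance of log2 values centred on each gene's mean. Closest to Has1 were Fnip1 (distance 0.069), which encodes a folliculin-interacting protein, Xylb (0.072), a xylulokinase gene, and Lpin1 (0.075), which encodes a phosphatidate phosphatase; these genes rose 1.63-fold, 1.63-fold and 1.67-fold. Closest to Vcan were Cds2 (0.026), Dip2b (0.038) and Zfp655 (0.041), which rose 1.28-fold, 1.28-fold and 1.27-fold. The call of Cds2 was lost without vehicle well 2 or 4OHT well 2, and that of Zfp655 without 4OHT well 2. Closest to Has2 were Ercc6l (0.063), Vxn (0.084) and Rassf6 (0.100). Vxn and Rassf6 were 1.32-fold and 1.29-fold lower (limma adjusted p = 0.0430 and 0.0270). Both calls were lost in a fit over all probe sets and with some arrays left out (adjusted p up to 0.134 and 0.0956). Ercc6l lay below the 95th percentile of background in both groups, so no fold is given. With 6 arrays in 2 groups, such closeness says mainly that the genes share a fold change and the order of the wells.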

How the data were processed

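Total RNA of 6 wells was amplified from an oligo(T) primer, biotinylated and hybridised to single-colour arrays, per the labels' protocols. The deposited values are log2 expression per probe set, made by the authors with RMA, which corrects background, equalizes the arrays' distributions and summarizes probes; oligo and limma are also named, without versions, per the submitters' processing notes, and no source used here gives the build. Of 41345 probe sets, 23521 had 1 symbol, 1814 several and 16010 none; of several probe sets of a gene, that with the highest mean was used. Groups were compared over 22180 genes with limma 3.58.1 in R 4.3.3 (lmFit, eBayes, two-sided, 6.70 degrees of freedom, no filter on dim genes), with Benjamini-Hochberg adjustment and a threshold of 0.05. Log2 fold changes are 4OHT minus vehicle. No detection calls were used; a group whose mean lay below the 95th percentile of olfactory and vomeronasal receptor genes on the same arrays was set to it for a fold given as "at least", and the number of arrays limits the precision. The fit was also run on simulated data, which checks the code and not the results above. Named genes are the 8 above, every called gene of the 7 pathway lists with 2 further genes of smallest p from each, up to 3 of smallest p from the mitosis and marker lists, and 3 nearest genes for each called gene among the 8, leaving out predicted, RIKEN, small RNA and olfactory or vomeronasal receptor genes; Ugdh, Pgm3, Ugp2, Cemip, Hyal4, Spam1 and Msln were named after their values were seen. The genes and lists were chosen with earlier results of these data known. As alternatives, the fit was repeated with the replicate number as a block, rescaling of the arrays, a filter on level, the mean of probe sets, all probe sets, other estimates of the spread, a stricter threshold and each array left out.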

Additional observations from a re-analysis of the deposited data

How the results depend on the processing

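The call and direction of Has1 held under all 15 alternatives in which it was tested. Over all genes, 1568 were called with the replicate number as a block, 4123 with a trended and robust estimate and 1010 at an adjusted p under 0.01, and 1220 to 2326 with 1 array left out. Of the 7 measured genes, 1 was called at an adjusted p under 0.01, and 1 to 3 with 1 array left out. Of the 68 other pathway genes, 10 were called with the replicate block, 8 in a fit over all probe sets and 7 at an adjusted p under 0.01, and 8 to 14 with 1 array left out. The log2 fold change of Has3 ran from -0.11 to 0.0068 with 1 array left out. The value of 0.0068, without vehicle replicate 1, was the only change of sign among the 70 genes picked by the naming rule above. Genes named outside that rule, such as Cemip, were not checked for a change of sign. The causes were not tested. The labels do not say that wells with the same number are pairs, so the numbers were not taken as pairs. Over all genes, wells with the same number showed little shared deviation (correlation of 0.062, -0.024 and 0.043 for numbers 1, 2 and 3). Such a correlation cannot exclude pairing for a given gene. With the block Has1, Has2 and Vcan were called (limma adjusted p = 0.0086, 0.0188 and 0.0456). Has1, Has3 and Tnfaip6 lie below the median level, so the filter on level gave no value for them.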
